A study of Mus musculus with 42 samples.

Results

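Transcripts of 4-cell mouse embryos given FK866 with NMN were compared with those of 4-cell embryos given FK866 alone, over the 7754 of 15737 measured genes that reached 1 FPKM per library in one group or both. FPKM is the number of fragments per kilobase of exon, scaled to the mapped fragments of the library. FK866 blocks NAMPT, the enzyme that turns nicotinamide into nicotinamide mononucleotide (NMN) in the salvage route to NAD+. NMN added to the medium enters that route after the blocked step. NAD+ carries electrons in energy metabolism and is consumed by sirtuins and PARPs, which link it to protein deacetylation and DNA repair. In mouse embryos the zygotic genome is switched on in waves around the 2-cell stage. Some genes active at that stage, such as the Zscan4 family, are normally low again by the 4-cell stage. The question of the comparison described here was how the transcriptome of 4-cell embryos given FK866 differs when NMN is given as well.

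RNA was sequenced from ICR mouse embryos collected 58 h after hCG. The FK866 group was given 0.01 µM FK866, the FK866+NMN group 0.01 µM FK866 with 10 µM NMN, and the 4-cell control neither agent. Each group had 2 libraries, and each library was made from 3 pooled embryos. The rows used here cover chromosomes 1 to 11 only, the last of them in part, so genes elsewhere are not described.

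The columns of the table and the study's supplementary list of ZGA genes name the 4-cell groups differently. All 84 FK866 values of that list that are among the rows equal the column headed late 2-cell Sirt1, and all 84 FK866+NMN values equal the column headed 4-cell control. The 84 control values equal the column headed late 2-cell TSA. No FK866 value of the list equals the column headed 4-cell FK866, and 3 of 84 FK866+NMN values equal the column headed 4-cell FK866+NMN. The groups are assigned below by these equal values, and the assignment by the headers is given beside the main counts. The 10 markers of the 2-cell stage (Zscan4a to Zscan4f, Usp17la, Usp17lc, Tdpoz4 and Zfp352) summed to 34.1 FPKM per library in the FK866 column and 48.5 in the FK866+NMN column used here. In the columns headed with those groups they summed to 277 and 367 FPKM per library, and in the column headed late 2-cell control to 489. Sirt1, the gene targeted by the knockdown named in one header, was at 52.7 FPKM per library in the FK866 column, 72.0 in the FK866+NMN column and 7.61 and 11.3 under the headers of those 2 groups. It was at 69.6 in the control column used here. In the columns headed late 2-cell control, FK866 and FK866+NMN it was at 76.4, 67.2 and 72.8. The FK866 column, headed late 2-cell Sirt1, was thus lower in Sirt1 than the FK866+NMN and control columns and these late 2-cell columns. The markers were therefore lowest in the columns that the equal values assign to the 4-cell stage. The equal values, and not the markers, set the assignment.

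Each of the columns used was the sum of 2 libraries, which could be separated because a value multiplied by exon length is a sum of whole reads. The FK866 libraries held 10003481 (library A) and 3169677 reads (library B), the FK866+NMN libraries 5476476 and 4642442, and the control libraries 6855134 and 6527679. One read on 1 kilobase of exon was worth 0.09997 FPKM in FK866 library A and 0.315 in library B, against 0.183 and 0.215 in the FK866+NMN libraries. The letters only order the libraries of a column by depth and carry no replicate number. All 4 libraries of the comparison could be separated for 7440 of the 7754 genes. FK866 library A, the deepest, stood apart from the others. It had a read on 6248 of the 7440 genes, the fewest, against 6525 in FK866 library B and 6807 and 6687 in the FK866+NMN libraries. Cumulus and sperm cells, which can adhere to embryos, were represented by few reads: 3 of 13 measured cumulus and granulosa markers and 2 of 4 measured sperm markers reached 1 FPKM. The summed cumulus markers were 10.0 and 15.0 FPKM in the FK866 libraries and 24.8 and 30.0 in the FK866+NMN libraries, mostly Gja1, a connexin gene. All 3 cumulus markers that reached 1 FPKM were higher with NMN, with a median log2 fold change of 0.99. Over pairs of an FK866+NMN and an FK866 library the median was 0.44 to 1.46. Without the 1 FPKM filter the median of the list was 0.48. The cell source of the Gja1 reads was not tested. The summed sperm markers were 9.62 and 13.8 FPKM with FK866 and 8.507 and 11.01 with NMN. The part of either cell type in the results was not tested.

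Libraries of different groups were about as alike as libraries of the same group. For log2(FPKM + 1) of 7437 genes, Pearson's r was 0.837 between the FK866 libraries and 0.883 between the FK866+NMN libraries. Between an FK866 and an FK866+NMN library it was 0.847 and 0.830 for FK866 library A and 0.872 and 0.871 for FK866 library B. FK866 library B was thus closer to both FK866+NMN libraries than to its own partner. The control libraries had an r of 0.872 with each other and of 0.808 to 0.875 with the 4 treated libraries. These r values describe genes within libraries, and genes are not independent replicates.

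The difference between the groups depended on the level of a gene and stayed near the spread between libraries at every level. For 3722 genes with a mean under 5 FPKM, the median absolute log2 difference was 0.84 between the FK866 libraries, 0.70 between the FK866+NMN libraries and 0.78 to 0.96 between libraries of different groups. For 486 genes at 100 FPKM or more, the same values were 0.39, 0.27 and 0.29 to 0.38. Genes under 5 FPKM differed by more than 2-fold between the columns in 40.5% of cases, genes from 5 to 20 FPKM in 17.2%, genes from 20 to 100 FPKM in 7.27% and genes above that in 2.47%.

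**Figure D1:**
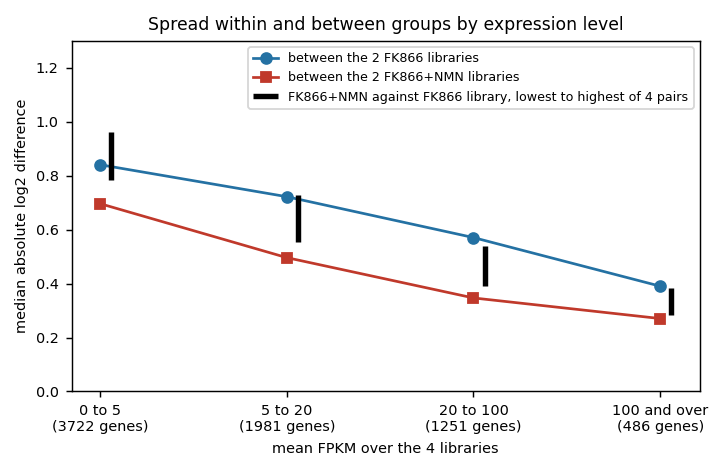
Median absolute log2 difference of FPKM + 1 (vertical axis) in 4 classes of mean FPKM (horizontal axis). The lines join the values within each group and the black bars span the 4 pairs of an FK866+NMN and an FK866 library; above 5 FPKM the bars lie mostly between the lines.

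Between the columns, 1148 of 7754 genes (14.8%) were more than 2-fold higher with NMN and 890 (11.5%) more than 2-fold lower, while 5716 genes (73.7%) lay within 2-fold. Folds are of FPKM per library with 1 FPKM added, a scale that makes changes of low genes look smaller. The median over all genes, as a log2 fold change, was 0.02, with quartiles at -0.47 and 0.57. Of the genes past 2-fold that could be separated, both FK866+NMN libraries lay above both FK866 libraries for 713 of 1106 higher genes (64.5%) and below them for 385 of 846 lower genes (45.5%). These 713 and 385 genes were 9.58% and 5.17% of the 7440 genes. Without regard to size, the libraries did not overlap for 1408 genes with NMN above (18.9%) and 1075 with NMN below (14.4%). No reads were found in either FK866 library for 472 genes of the comparison and in either FK866+NMN library for 264. Against a floor of 3 reads per library, 339 of the former were at least 2-fold higher and 202 of the latter at least 2-fold lower. Such genes could enter only by reaching 1 FPKM in the other group, so the filter fixed their direction. Through FK866+NMN alone 1192 genes passed the filter, and through FK866 alone 857. Of the 1148 higher genes 493 were listed at 0 with FK866, and of the 890 lower genes 281 at 0 with NMN.

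No gene passed the test between the groups. With limma on the 4 separated libraries, 0 of 7440 genes (0.0%) were called at a Benjamini-Hochberg adjusted p under 0.05, and the lowest adjusted p was 0.859. An unadjusted p under 0.05 was found for 346 genes (4.65%), 217 of them higher and 129 lower with NMN. All 12 alternative settings of the fit also called 0 genes, with 216 to 892 genes under an unadjusted p of 0.05. The median standard error of the log2 difference was 0.69 and the median half-width of its 95% interval was 1.64, or 3.12-fold. The interval lay wholly within 2-fold in either direction for 369 genes (4.96%).

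**Figure D2:**
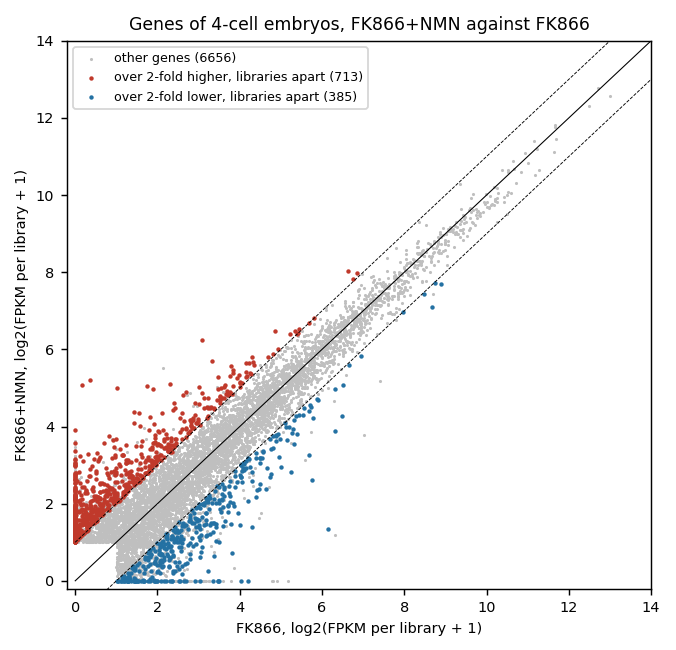
FPKM per library with 1 added, on a log2 scale, in FK866 embryos (horizontal axis) and FK866+NMN embryos (vertical axis), 1 point per gene. Dashed lines mark 2-fold; red points (713) and blue points (385) are past it with libraries that did not overlap, and they thin out towards high levels.

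Leaving out FK866 library A changed the balance of the counts to 1463 genes higher and 671 lower with NMN, and moved the median over all genes from 0.02 to 0.15. Leaving out FK866 library B gave 1786 higher and 990 lower genes. Leaving out FK866+NMN library A turned the balance, with 952 genes higher, 1293 lower and a median of -0.065, and leaving out FK866+NMN library B gave 1052 higher and 1010 lower genes. By the headers, with 1 library for each group, 10 of the 23 genes named below that had a value there were in the opposite direction, 2230 of 8929 genes were higher and 3100 lower, and the median was -0.29. For reference, by the same 2-fold measure 1571 of 7420 genes were higher and 994 lower in FK866 than in control embryos, and 1711 of 7598 were higher and 863 lower in FK866+NMN than in control embryos. These comparisons share libraries with each other and are set side by side only.

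Protein-coding genes made up 75.1% of the genes of the comparison with a GENCODE type, 80.8% of those within 2-fold, 58.1% of those more than 2-fold higher and 60.4% of those more than 2-fold lower. Genes of other types were thus more frequent past the threshold in both directions. They were also lower, with a median of 3.23 FPKM per library against 5.61 for protein-coding genes.

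Among 157 eligible genes higher with NMN, the 12 with the smallest p were Gemin6-ps, Klhl8, Nat8f2, AV356131, Spata33, Mfap2, Klhl21, Sva, Arl6ip6, Platr27, Kdelr1 and Oip5. None passed the adjusted test. Eligible genes, 157 of the 7440 separated, were more than 2-fold higher with libraries that did not overlap. They also had at least 5 FPKM in each library of the higher group. The gap between the groups and the small p were conditions of the choice, here and for the lower genes below. Klhl8 (chromosome 5, 103861973 to 103911259, minus strand, GRCm38), a Kelch-like gene, was at 3.70 and 4.25 FPKM in the FK866 libraries and 48.5 and 18.8 in the FK866+NMN libraries. The FK866 libraries lay close together, and the gap to both libraries with NMN was a condition of the choice. The log2 difference was 2.66 with an SE of 0.58 (limma adjusted p = 0.859). The control libraries, at 0 and 9.48 FPKM, spanned the FK866 values.

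Klhl21 (chromosome 4, 152008803 to 152017680, plus strand), an adaptor of the Cul3 ubiquitin ligase that acts in cell division, had the smallest standard error of the 12. It was at 12.6 and 12.7 FPKM with FK866 and 39.1 and 38.8 with NMN, a log2 difference of 1.55 with an SE of 0.39. Its control libraries were at 12.5 and 24.98 FPKM, at and above the FK866 level.

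Oip5 (chromosome 2, 119609512 to 119618469, minus strand), a subunit of the Mis18 complex that prepares centromeres for CENP-A, was at 5.06 and 9.94 FPKM with FK866 and 32.2 and 24.5 with NMN. Its control libraries, at 24.4 and 32.0 FPKM, lay at the FK866+NMN level. Its span overlaps Nusap1, and reads shared by the pair may be assigned to either or neither. The spans of Klhl8, Klhl21, Spata33, Kdelr1 and, among the lower genes, Fbxo6, Ndufs3 and Snord89 also overlap other annotated genes.

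Kdelr1, a receptor that returns escaped proteins to the endoplasmic reticulum, was at 0 and 1.01 FPKM with FK866 and 9.26 and 6.67 with NMN. Spata33 was at 2.14 and 1.83 FPKM with FK866 and 18.2 and 11.9 with NMN, Mfap2, a microfibril component, at 4.54 and 4.17 against 17.3 and 25.3, and Arl6ip6 at 1.78 and 6.77 against 22.6 and 24.2. The control libraries differed between these genes, being at 0 for Mfap2 and at 3.94 and 44.8 FPKM for Arl6ip6. The remaining genes rested on few reads or non-coding loci. Nat8f2 had 3 reads in the FK866 libraries together and 260 in the FK866+NMN libraries, a ratio of 113 with a counting interval of 38.2 to 551, and Platr27, a long non-coding RNA, had 3 and 76, a ratio of 33.0 (10.9 to 163). Sva had no read in either FK866 library and 19 and 17 with NMN, at least 5.72-fold higher against a floor of 3 reads per library. Gemin6-ps is a processed pseudogene whose reads may come from a near-identical copy. Intervals and floors cover counting error only.

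**Figure D3:**
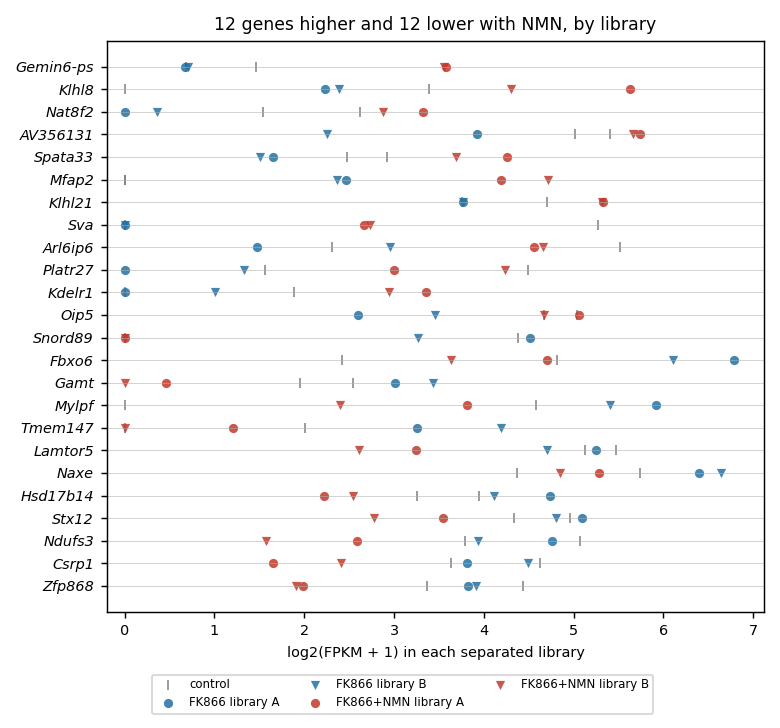
log2(FPKM + 1) (horizontal axis) of the 12 genes higher and 12 lower with NMN (vertical axis) in each separated library. Blue marks are FK866, red FK866+NMN and grey ticks control libraries; the red and blue marks do not overlap for any gene because the genes were chosen so, whereas the control ticks fall on either side.

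By the same rule 111 of the 7440 genes were eligible as lower with NMN. The 12 with the smallest p were Snord89, Fbxo6, Gamt, Mylpf, Tmem147, Lamtor5, Naxe, Hsd17b14, Stx12, Ndufs3, Csrp1 and Zfp868, again with none past the adjusted test. Naxe (chromosome 3, 88056520 to 88058495, minus strand) encodes the epimerase that repairs damaged, hydrated forms of NADH and NADPH. It was at 83.0 and 98.7 FPKM with FK866 and at 38.0 and 27.8 with NMN. The log2 difference was -1.45 with an SE of 0.35 (limma adjusted p = 0.859). The control libraries were at 19.6 and 52.3 FPKM, on both sides of the FK866+NMN values and under both FK866 values.

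Fbxo6 (chromosome 4, 148145716 to 148152140, minus strand), an F-box protein that recognises glycoproteins for degradation, was at 109 and 67.9 FPKM with FK866 and 25.1 and 11.4 with NMN, a log2 difference of -2.28 with an SE of 0.49. Its control libraries were at 4.36 and 27.1 FPKM, below and above both FK866+NMN values and under both FK866 values. Ndufs3, a core subunit of respiratory complex I, was at 26.02 and 14.34 FPKM with FK866 and 5.03 and 1.98 with NMN. Here the control libraries, at 32.6 and 12.9 FPKM, lay at the FK866 level. Lamtor5, a subunit of the Ragulator complex that recruits mTORC1 to lysosomes, was at 37.0 and 24.98 FPKM against 8.47 and 5.12, and its control libraries at 34.0 and 43.3 also lay with FK866.

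Gamt, the methyltransferase that completes creatine synthesis, had 147 reads in the FK866 libraries and 3 in the FK866+NMN libraries, a ratio of 0.0266 (0.00542 to 0.0792). Mylpf, a regulatory myosin light chain, was at 59.3 and 41.3 FPKM with FK866 and 13.1 and 4.26 with NMN, and its control libraries at 0 and 22.9. Stx12, a syntaxin of recycling endosomes, was at 33.3 and 27.0 against 10.7 and 5.88. The other members of this group were lower to a similar degree. Tmem147, Hsd17b14, Csrp1 and Zfp868 had log2 differences from -3.12 to -1.92. Snord89, a small nucleolar RNA gene, had 24 and 3 reads with FK866 and none with NMN, at least 2.80-fold lower.

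Of the genes for NAD synthesis, transport and breakdown, 16 of 35 are among the rows and 4 reached 1 FPKM. None of the 4 was more than 2-fold higher or lower (14.8% and 11.5% of all genes), and their median log2 fold change was -0.17. Nmnat1, which makes NAD+ from NMN in the nucleus, was at 17.64 and 14.02 FPKM with FK866 and 15.6 and 12.9 with NMN, and the libraries overlapped. Nadk, which phosphorylates NAD+ to NADP+, was at 67.9 and 36.6 against 58.5 and 32.9. Slc25a51, the mitochondrial NAD+ carrier, was at 14.9 and 13.7 against 26.4 and 14.9. Nt5c3, a nucleotidase, was at 3.25 and 7.20 against 2.92 and 2.58 and was the only one of the 4 whose libraries did not overlap. The other 12 measured genes, among them Nadsyn1, Qprt, Cd38 and Nmnat3, were under 1 FPKM per library in both groups. Nampt, the target of FK866, was not analysed here.

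Of the sirtuins, the NAD+-dependent deacylases, 5 of 7 are among the rows and 4 reached 1 FPKM. Sirt1 was at 32.4 and 73.1 FPKM in the FK866 libraries and 77.3 and 66.8 in the FK866+NMN libraries, with control libraries at 65.8 and 73.4. Only FK866 library A lay apart from the other 5, and the log2 fold change between the columns, 0.44, rested on it. The FK866 column is the one headed late 2-cell Sirt1. Sirt2, at 0.10 and 0.69 FPKM against 0.73 and 2.10, and Sirt6, at 6.89 and 4.76 against 7.74 and 7.04, had non-overlapping libraries with unadjusted p of 0.357 and 0.577. Sirt4 was at 17.1 and 1.18 against 4.72 and 2.60, so that its FK866 libraries spanned both others. Sirt3 had no reads in either column. Of the PARP and tankyrase genes, 8 of 10 measured reached 1 FPKM, with none past 2-fold (14.8% and 11.5% of all genes) and a median of -0.04.

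The genes listed here as the 2-cell transcriptional programme did not move together. Of 23 measured, 17 reached 1 FPKM, 2 were more than 2-fold higher with NMN, none was more than 2-fold lower and the median was 0.03, against 14.8% and 11.5% and a median of 0.02 over all genes. The 4 medians over single library pairs were 0.21 to 0.30, above the median between the columns. Zscan4c was at 4.83 and 14.6 FPKM with FK866 and 9.23 and 7.10 with NMN, and Zscan4d at 2.33 and 5.69 against 5.06 and 15.6. In both, the libraries of the groups overlapped. Zscan4f was slightly higher with NMN, at 12.0 and 12.3 FPKM against 8.32 and 8.05, and Zscan4b lower, at 0.41 and 0.96 against 1.44 and 2.10. Members of the Zscan4 family are near-identical copies, and reads may be split between them.

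Zfp352, a zinc finger gene of the 2-cell programme, had 1 read in the FK866 libraries together and 121 in the FK866+NMN libraries, a ratio of 158 (27.7 to 6273), at 8.10 and 1.89 FPKM with NMN. Its control libraries were at 6.35 and 0.07 FPKM, one near each group. Tdpoz5 was at 51.7 and 65.7 FPKM with FK866 and 80.9 in both libraries with NMN. Nelfa, a subunit of the negative elongation factor, was at 69.4 and 45.2 against 38.2 and 35.1, with control libraries lower still at 19.0 and 24.6. The family members with the highest levels, Pramel7 (332 and 318 against 313 and 411 FPKM) and Zscan5b (346 and 122 against 281 and 215), had overlapping libraries. They were also high in the control libraries, Pramel7 at 331 and 429 FPKM and Zscan5b at 207 and 158. Other members were low there, such as Zscan4c at 0.77 and 0.67 FPKM. Duxf3 had no reads in either column. In the list of Obox homeobox genes and Crxos, 1 of 8 was more than 2-fold higher with libraries apart and none lower. Over all genes these shares were 9.58% and 5.17%. The gene was Obox5, at 9.36 and 17.4 FPKM with FK866 and 55.8 and 29.7 with NMN. Its control libraries were at 6.21 and 1.58.

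**Figure D4:**
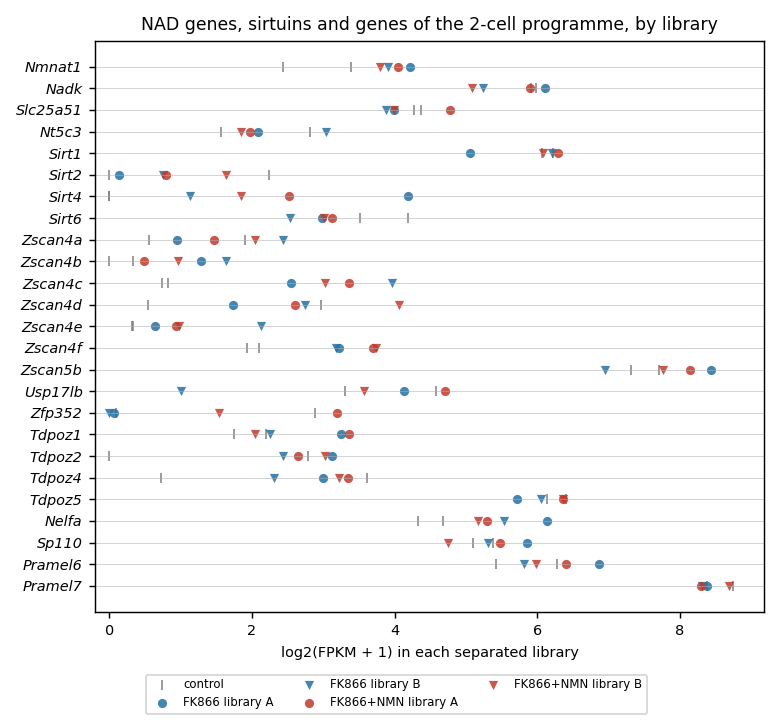
log2(FPKM + 1) (horizontal axis) in each separated library for the 4 NAD genes, 4 sirtuins and 17 genes of the 2-cell programme at 1 FPKM or more (vertical axis). The marks of FK866 (blue) and FK866+NMN (red) interleave for most genes, and Sirt1 is low in FK866 library A alone.

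The study's own list of minor ZGA genes recovered by NMN at this stage was chosen on these libraries, so its direction is no independent evidence. Of its 84 genes among the rows, 76 reached 1 FPKM and all 76 were lower in the FK866+NMN column, 22 of them more than 2-fold, against 11.5% of all genes. The median was -0.58. Of the 74 that could be separated, 8 were more than 2-fold lower with both FK866+NMN libraries under both FK866 libraries, against 5.17% of all genes. No gene of the list had an unadjusted limma p under 0.05, and the median without FK866 library A was -0.20.

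Oocyte and maternal-effect genes, whose transcripts are stored in the egg and degraded as the embryonic genome takes over, included 8 of 34 genes above and 7 below the 2-fold threshold, against 14.8% and 11.5% of all genes. Their median was 0.26, but 2 of the 4 library pairs had a median above 0 (-0.06 to 0.59), and it was -0.26 without FK866+NMN library A. Gpr3, a receptor that holds oocytes in meiotic arrest, was at 9.62 and 4.385 FPKM with FK866 and 23.0 and 22.8 with NMN. Fbxw15 was at 0 and 4.01 against 5.62 and 14.8. The control libraries of Gpr3 were at 18.8 and 16.8 FPKM and those of Fbxw15 at 16.6 and 0.

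Of 50 cytosolic ribosomal protein genes, 41 had a log2 fold change under 0, against 3812 of 7754 over all genes. In this list 21 genes had both FK866+NMN libraries under both FK866 libraries, against 14.4% of all genes. None had both above. The median was -0.24, and 1 gene, Rpl21, was more than 2-fold lower, against 11.5% of all genes. The median lay under 0 in each of the 4 library pairs, from -0.41 to -0.03, and was -0.10 without FK866 library A. All genes at 100 FPKM or more had a median of -0.10, and 45 of the 50 ribosomal protein genes were at that level. Summed over the list, the FK866 libraries were at 32043 and 29533 FPKM, the FK866+NMN libraries at 25379 and 27993, and the control libraries at 28891 and 24057, so that control values spanned those with NMN. Rps27, with the third-largest change among the members with libraries apart and a larger one than most of the list, was at 822 and 654 FPKM with FK866 and 443 and 538 with NMN (unadjusted p = 0.0689). By the headers the list median was 0.78, in the opposite direction. Ribosomal protein genes have many processed pseudogenes, which may share their reads.

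Of 53 genes named as oxidative phosphorylation subunits or assembly factors, 37 were under 0, against 3812 of 7754 over all genes. In this list 14 had both FK866+NMN libraries below and 4 had both above, against 14.4% and 18.9% of all genes. Past 2-fold, 3 were higher and 5 lower, against 14.8% and 11.5% of all genes. The median was -0.22, and 0.07 by the headers. Ndufs3, described above, was the lowest with libraries apart, while Ndufaf6, an assembly factor of the same complex, was at 0.97 and 5.62 FPKM with FK866 and 16.4 and 22.5 with NMN. Summed, these genes were at 2253 and 2251 FPKM in the FK866 libraries, 1833 and 1736 with NMN and 2647 and 2272 in control libraries. Mitochondrial ribosomal protein genes had a median of -0.21 with none of 40 past 2-fold. TCA cycle genes had a median of -0.26 with 1 of 17 past 2-fold, lower (14.8% higher and 11.5% lower over all genes). The medians of both lists were above 0 in 1 of the 4 library pairs.

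Redox defence genes had a median of -0.20, with 1 of 17 higher and 4 lower past 2-fold, against 14.8% and 11.5% of all genes. Gpx4, the peroxidase that reduces lipid peroxides, was at 309 and 191 FPKM with FK866 and 146 and 101 with NMN, and its control libraries at 136 and 155 lay under both FK866 values and near the higher FK866+NMN value. Nfe2l2, the transcription factor of the antioxidant response, was at 2.21 and 8.39 against 18.1 and 15.3. Nqo1, one of its targets, was in the opposite direction at 1.42 and 8.13 against 0.47 and 0. Of 18 genes of glycolysis and sugar or lactate transport, 2 were higher and 3 lower past 2-fold (14.8% and 11.5% of all genes), with a median of -0.03. The glucose carrier Slc2a8 was at 1.50 and 3.05 FPKM against 6.77 and 8.73.

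Among chromatin genes, 8 classical deacetylases and corepressors had a median of 0.45. Sap30, a subunit of the Sin3 deacetylase complex, was at 132 and 63.5 FPKM with FK866 and 204 and 319 with NMN, above its control libraries at 125 and 88.0. The 10 acetyltransferase, reader and acetyl-CoA genes had a median of 0.26, with Hat1 at 12.8 and 16.3 against 19.1 and 33.1. For both lists the sign of the median changed between library pairs. Pluripotency and lineage factors had a median of -0.23, with 1 of 24 higher and 4 lower past 2-fold (14.8% and 11.5% of all genes). Both FK866+NMN libraries lay below both FK866 libraries for 8 of the 24 and above for 3, against 14.4% and 18.9% of all genes. Fgfr2, an FGF receptor, was at 1.49 and 5.93 against 1.15 and 0.08.

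Of 35 cyclin, mitotic kinase and licensing genes, 5 were higher and 1 lower past 2-fold, against 14.8% and 11.5% of all genes. The median was 0.12 and turned to -0.03 without FK866 library B and -0.02 without FK866+NMN library A. Orc1, the largest subunit of the origin recognition complex, was at 17.4 and 41.5 FPKM with FK866 and 65.5 and 61.5 with NMN, and Bub1, a spindle checkpoint kinase, at 6.15 and 5.94 against 9.35 and 23.2. Cdkn1c, an inhibitor of cyclin-dependent kinases, had no read with FK866 and 1.97 and 3.91 FPKM with NMN, at least 9.62-fold higher. Of 24 DNA damage and p53 genes, 16 were above 0, against 3942 of 7754 over all genes. Their median was 0.31 between the columns and 0.18 to 0.30 over the library pairs. Past 2-fold, 1 gene was higher and 1 lower, against 14.8% and 11.5% of all genes. Of the 23 that could be separated, 7 had both FK866+NMN libraries above and 2 both below, against 18.9% and 14.4% of all genes. Rpa2, which binds single-stranded DNA, was at 75.2 and 74.0 FPKM against 119 and 161, with control libraries at 87.0 and 89.4 between the groups.

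Stress genes showed no common direction. Of 20 genes of the ATF4 and integrated stress response, 3 were higher and 3 lower past 2-fold (14.8% and 11.5% of all genes), with a median of 0.14. Shmt2, a mitochondrial enzyme of one-carbon metabolism, was at 5.76 and 8.22 FPKM against 0.76 and 1.59, and Asns, asparagine synthetase, had 124 reads with FK866 and 1 with NMN, a ratio of 0.0105 (0.000264 to 0.0596). The chaperone Hspa5 was at 7.80 and 14.6 against 18.8 and 32.6. Of 18 heat shock and chaperonin genes, 2 were higher and none lower past 2-fold (14.8% and 11.5% of all genes), with a median of -0.06. Proteasome subunits (19 genes, median 0.02), translation initiation factors and genes named after them (30, -0.03) and ribosome biogenesis genes (36, -0.001) lay at the median of all genes.

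**Figure D5:**
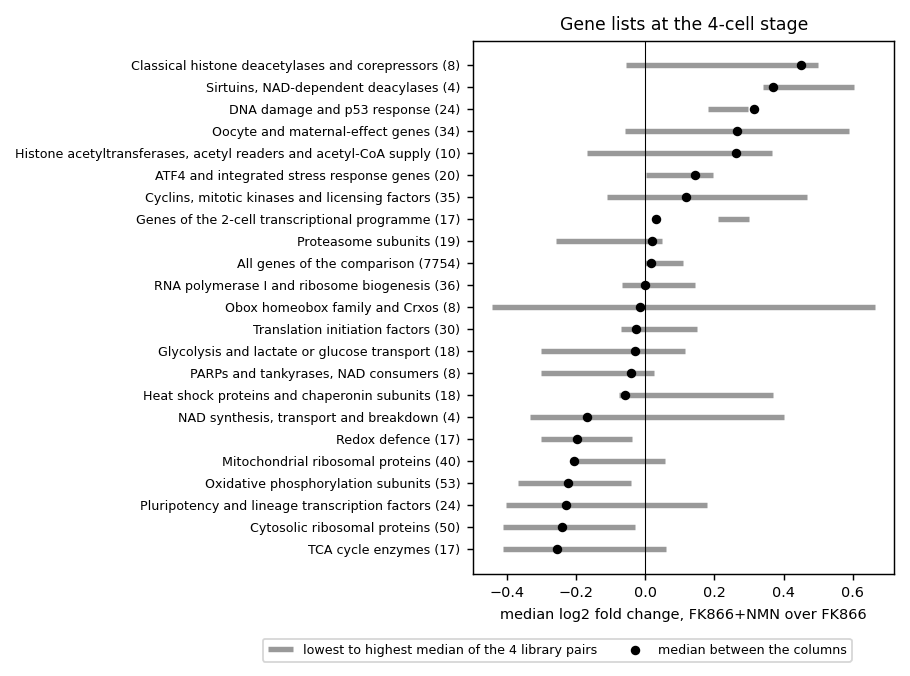
Median log2 fold change with NMN (horizontal axis) for each gene list with 4 or more genes at 1 FPKM (number in brackets, vertical axis), without the study's own list. Points are the medians between the columns and grey bars span the medians of the 4 pairs of separated libraries; most bars cross 0, those of redox defence, cytosolic ribosomal protein and oxidative phosphorylation genes lie under it, and those of sirtuins, the DNA damage response, the 2-cell programme and the integrated stress response lie above it.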

How the data were processed

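Per the methods of the study, reads were trimmed with Trim Galore, aligned to mm10 with HISAT2, counted on genes with featureCounts and converted to FPKM. The submitters' processing notes also name CASAVA 1.4. The authors deposited FPKM values with 1 column per group, so the values are not counts and no count model was used. Of 15748 rows, 15747 are complete, and 10 with repeated symbols were left out. Exon lengths came from GENCODE M21 on GRCm38. About 97.6% to 97.7% of the values of the columns compared could be separated into whole reads of 2 libraries, and the procedure was tested on simulated data. Genes with 1 FPKM or more per library in either column were kept. Fold changes are of FPKM per library + 1, and limma 3.58.1 (lmFit, eBayes with trend) was run on log2(FPKM + 1) with Benjamini-Hochberg adjustment. The study calls the libraries biological replicates, without saying whether they came from separate cultures, and p-values measure the spread between them.

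The named genes are 12 higher and 12 lower ones with more than 2-fold, non-overlapping libraries and at least 5 FPKM in each library of the higher group, ordered by p, with Gm-number and Rik symbols left out. Beside them, members of the NAD, sirtuin and 2-cell lists and up to 3 members of the other lists with libraries apart are given. The members, lists and rules were chosen with earlier results of these data known. Alternatives were other pseudocounts, filters, centring, the columns by header or not divided, each library left out, limma without trend, and a fit of 6 libraries with the control. The columns of the other groups enter only the checks of the headers, and the H3K27ac samples were not analysed here. The tools were R 4.3.3, Python 3.11.15 and pandas 2.3.3.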

Additional observations from a re-analysis of the deposited data

How the results depend on the processing

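No paired analysis was possible because the columns carry no replicate numbers and the separated libraries are ordered only by depth. With limma, 0 genes were called under all 12 alternatives, and the lowest adjusted p over them was 0.0646, with FK866+NMN library B left out; a lone library is then assumed to vary like the other group. The 24 named genes were chosen for libraries that lie apart, so alternatives of the fit could hardly turn them. By the headers 10 of 23 were reversed: Gemin6-ps (log2 fold change -3.25), Nat8f2 (-1.54), Spata33 (-1.23), Mfap2 (-0.10), Arl6ip6 (-0.037), Platr27 (-6.25), Fbxo6 (1.92), Hsd17b14 (3.88), Ndufs3 (1.64) and Zfp868 (1.10). The counts of genes past 2-fold depended on low genes. They were 163 higher and 165 lower with a pseudocount of 5, 372 and 363 with at least 5 FPKM, and 335 and 339 among genes with a read in all 4 libraries, an alternative chosen after seeing the data. By the headers they were 2230 and 3100, and with columns not divided 1833 genes were higher. Leaving out each library gave 952 to 1786 higher and 671 to 1293 lower genes, 0 to 0 limma calls in either direction and a median of all genes from -0.065 to 0.15. Without FK866+NMN library A, lower genes (1293) outnumbered higher ones (952). By the headers the median of all genes was -0.29, that of the 2-cell programme 0.69, that of ribosomal protein genes 0.78 and that of oxidative phosphorylation genes 0.074. The median of the 2-cell programme was 0.084 with at least 5 FPKM and -0.033 to 0.39 with a library left out, that of ribosomal protein genes -0.34 to -0.10 and that of oxidative phosphorylation genes -0.37 to -0.14. Of 264 alternative values of list medians, 206 moved by less than the standard deviation of the medians over library pairs. Leaving out a library turned the sign of the median of 12 of 24 lists at least once. Beside the 2-cell programme these were the lists of maternal (-0.26 to 0.36), cell cycle (-0.03 to 0.38), NAD (-0.46 to 0.17), Obox (-0.39 to 0.41), heat shock (-0.27 to 0.12), integrated stress response (-0.04 to 0.30), mitochondrial ribosomal (-0.21 to 0.02), initiation factor (-0.01 to 0.06), ribosome biogenesis (-0.09 to 0.07), proteasome (-0.08 to -0.02) and sperm genes (-0.23 to 0.20). The cause of these shifts was not tested. With genes at 0 in a group set to their bound, the median of all genes was 0.01. Depth limits the low genes most, since 1 read on 1 kilobase is worth 0.315 FPKM in FK866 library B.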
